A study of Mus musculus with 20 samples.

Results

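The step from 6 h to 12-15 h after induction of the transcription factor IKZF1 was examined in 6 of the 20 chromatin-associated RNA-seq libraries of the series. The 2 libraries at 12 h and the 2 at 15 h were pooled and set against the 2 at 6 h, and a gene had to move in the same direction at 12 h and at 15 h. The cells were B3, a mouse pre-B cell line of lymphoma origin, transduced with a retroviral Ikaros-ERt2 construct and sorted as a pool by GFP. The fusion protein is held outside the nucleus until 500 nM 4-hydroxytamoxifen (4-OHT) is added, and all 6 libraries carried both the construct and the drug, differing only in time. The time course ran from 0 h through 30 min, 1, 2, 6, 12, 15, 18, 21 and 24 h, with 2 libraries at each time point. No time-matched vehicle or untransduced library was analysed here, so the effects of IKZF1, of 4-OHT and of time in culture cannot be told apart. The labels do not say whether the 2 replicates of a time point were separate cultures. The p-values measure only the spread between libraries, which was estimated over all 20 together and not for 12 h on its own.

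Pre-B cells carry a pre-B cell receptor made of an immunoglobulin heavy chain and a surrogate light chain, and proliferate until signals through the receptor and its adaptor BLNK move them towards light-chain rearrangement. IKZF1 (Ikaros) is a zinc-finger DNA-binding protein of lymphoid cells that restrains pre-B cell proliferation and is a tumour suppressor in B-cell leukaemia. Chromatin-associated RNA is enriched for transcripts still being made, so its level follows transcription more closely than that of total RNA.

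The 6 libraries held between 33437057 and 44291601 counts. The 12 h replicates differed from each other more than the others, with a median absolute log2 difference of 0.110 over 12056 genes, against 0.0443 at 6 h and 0.0525 at 15 h. B-lineage identity was checked on markers. Ebf1, a transcription factor that specifies B cells, was at a mean of 10779 CPM (counts scaled to a common library size) at 6 h, 5997 CPM at 12 h and 5929 CPM at 15 h, and Pax5, which maintains B-cell identity, was at 1608, 1784 and 2314 CPM. Rag1 and Rag2, the V(D)J recombinase genes, had 0 counts in all 6 libraries. Markers of other lineages stayed low. Summed CPM ranged from 3.32 to 3.90 at 6 h and from 4.49 to 5.28 later for 8 T cell markers, from 1.25 to 1.35 and from 2.13 to 2.68 for 10 myeloid markers, of which 5 were at 0, and from 3.85 to 4.44 and from 6.93 to 11.6 for 6 plasma cell markers. NK cell markers summed to 12.4 CPM in both 6 h libraries and to between 17.6 and 23.9 CPM later. Most of the NK sum came from Klrd1, which reached 22.6 CPM and was not called. Among these lists the genes called up were Fcgr3, Prf1 and Jchain. Prf1 reached at most 1.07 CPM and was under the fold threshold without 6 h replicate 1 (0.95 on the log2 scale). The part of these genes in the results was not tested.

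How far along the course these libraries lay was measured on genes chosen with other libraries. Of 16601 genes tested, 2697 were called up and 2753 down at 24 h against 2 h (32.8% either way). In each library the median position of those genes between their 2 h level (0%) and their 24 h level (100%) was computed. Genes that rose stood at 31.2% and 31.6% in the 6 h libraries, at 51.12% and 52.97% at 12 h, and at 69.6% and 68.5% at 15 h. Genes that fell stood at 19.3% and 19.8%, 36.8% and 37.1%, and 55.1% and 56.3%. In both directions the time points did not overlap, and 12 h lay between 6 h and 15 h.

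**Figure D1:**
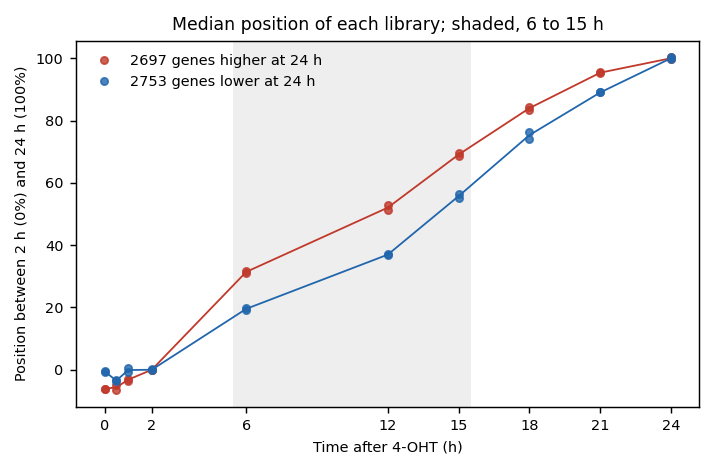
Median position of the 2697 genes higher and the 2753 genes lower at 24 h, in each of the 20 libraries (points) and as time-point means (lines), against time after 4-OHT in hours; the shaded span holds the 6 libraries compared. Genes that rose move from a mean of 31.4% at 6 h to 52.0% at 12 h and 69.1% at 15 h, and genes that fell from 19.5% to 37.0% and 55.7%.

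Over the step 665 genes rose and 486 fell (4.01% and 2.93% of the 16601 genes tested, or 6.93% either way) with an adjusted p under 0.01 and a fold change above 2 in edgeR's quasi-likelihood test. The median log2 fold change was 1.43 among the genes that rose and -1.45 among those that fell, and -0.0038 over all genes tested. Many of these genes were of low level, as 323 of the rising and 267 of the falling genes averaged below 1 CPM, and 141 and 132 changed by more than 4-fold. All 4 later libraries lay above both 6 h libraries for 659 of the 665 rising genes (26.2% of all genes did so) and below both for 478 of the 486 falling genes (26.6% of all genes). The calls came from these same libraries, so this separation, here and for single genes below, is no independent support for them. No gene passed the thresholds with opposite signs at 12 h and 15 h.

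The change was larger at the later time for most genes. Rising genes had a median log2 fold change of 1.29 at 12 h and 1.60 at 15 h against 6 h, and 533 of 665 were further from 6 h at 15 h. Falling genes had medians of -1.35 and -1.65, and 321 of 486 were further at 15 h. Taken separately, 12 h against 6 h called 446 genes up and 350 down (2.69% and 2.11%, or 4.79% either way), 15 h against 6 h called 873 up and 674 down (5.26% and 4.06%, or 9.32% either way), and 15 h against 12 h called 63 up and 56 down (0.379% and 0.337%, or 0.717% either way). Calls at 12 h and 15 h share the 6 h libraries.

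**Figure D2:**
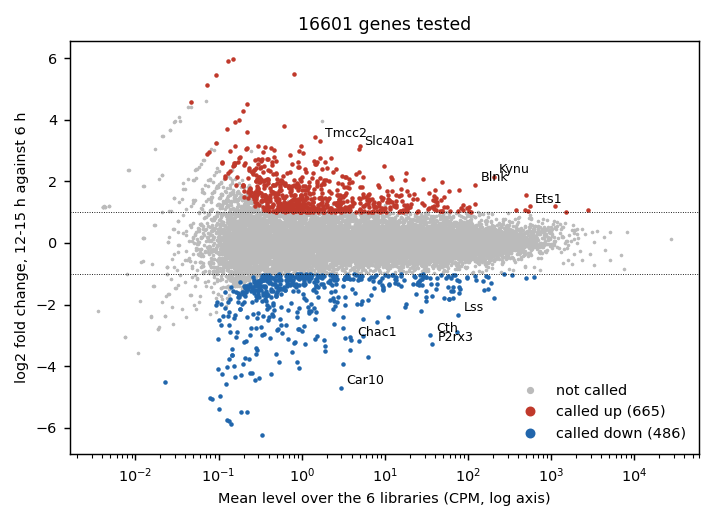
Log2 fold change of 12-15 h against 6 h for each of 16601 genes against its mean level over the 6 libraries (CPM, log axis). Red points are the 665 genes called up, blue points the 486 called down, dotted lines a 2-fold change, and the genes labelled are described in the text.

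The step was next set beside 2 comparisons that use none of its libraries. Of the 665 rising genes, 476 (71.6%) were also called up at 24 h against 2 h, where 16.2% of all genes were, and 34 were called down. Of the 486 falling genes, 298 (61.3%) were called down at 24 h against 2 h, where 16.6% of all genes were, and 13 were called up. In the first 2 h against 0 h, 120 (24.7%) of the genes that later fell were called up, against 6.25% of all genes. Another 43 (8.85%) were called down, against 6.91% of all genes. Of the genes that later rose, 119 (17.9%) were called down in the first 2 h, against 6.91% of all genes, and 77 (11.6%) were called up, against 6.25%. Early calls were thus above the shares of all genes, except that falling genes called down early (8.85%) lay near the 6.91% of all genes.

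The largest rises among protein-coding genes averaging at least 1 CPM were in Tmcc2, Nhsl2, Slc40a1, Drd3, Wscd2, Slc18b1, Spo11, Ankrd6, Gdnf, Kynu, Capg and Rnf180. Promoter sequences of the leading genes of each direction with an entry in the table used are printed to show the DNA at their start; for the rises these are Tmcc2 and Drd3, since Nhsl2 and Slc40a1 had no entry. Each runs from 250 bases before to 50 bases after the start in RefSeq (GRCm38.p6), 5′ to 3′ on the gene's strand, and capitals mark matches, on either strand, to any of the motifs GGGAA (the core bound by Ikaros proteins), CACGTG (an E-box), TGTTTAC (forkhead), CCAAT (NF-Y), TTTGAA (found in cell-cycle gene promoters), GAAACT (part of an interferon response element), TGATGCA (part of an element bound by ATF4) and TCACCCC (part of a sterol regulatory element). Tmcc2 (chr1:132391337-132391636, minus strand) held none of them and Drd3 (chr16:43761971-43762270, plus strand) held GGGAA 2 times and CCAAT 2 times.
Tmcc2: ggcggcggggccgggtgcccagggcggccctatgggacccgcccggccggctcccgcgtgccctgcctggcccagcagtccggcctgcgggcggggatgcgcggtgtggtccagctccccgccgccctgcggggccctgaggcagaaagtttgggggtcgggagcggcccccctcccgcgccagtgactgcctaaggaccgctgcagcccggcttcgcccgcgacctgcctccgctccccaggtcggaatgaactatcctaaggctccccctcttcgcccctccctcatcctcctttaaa
Drd3: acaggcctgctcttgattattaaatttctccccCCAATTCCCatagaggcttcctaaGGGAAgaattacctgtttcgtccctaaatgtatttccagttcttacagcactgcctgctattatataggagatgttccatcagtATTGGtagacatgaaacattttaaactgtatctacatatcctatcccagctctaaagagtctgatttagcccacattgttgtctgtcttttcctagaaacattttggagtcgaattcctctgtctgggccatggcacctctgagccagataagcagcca
Among 10170 promoters of tested protein-coding genes, 64.7% held the Ikaros core, 9.60% the E-box, 2.59% the forkhead motif, 39.0% the NF-Y motif, 12.6% the cell-cycle motif, 14.3% the interferon motif, 2.07% the ATF4 motif and 5.11% the sterol motif. The comparison of these shares between rising and falling genes was void, since a promoter was matched for only 72.7% and 73.6% of the protein-coding genes called.

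Slc40a1, which encodes ferroportin, the iron exporter, was at 0.747 and 0.884 CPM at 6 h, 5.84 and 5.48 CPM at 12 h, and 8.42 and 8.03 CPM at 15 h. Its log2 fold change was 3.05 ± 0.130 (SE; edgeR adjusted p = 5.19e-14). All 4 later libraries were above both at 6 h, as the choice of the gene required, and the gene stood at a mean of 13.1 CPM at 24 h. Tmcc2, a transmembrane coiled-coil protein gene, went from 0.280 and 0.194 CPM to 1.44 and 2.64 CPM at 12 h and 2.76 and 2.65 CPM at 15 h, or 3.31 ± 0.300 on the log2 scale. Its 12 h replicates were 1.44 and 2.64 CPM, far apart compared with those at 15 h. Nhsl2 went from 0.724 and 0.841 CPM to between 5.20 and 8.65 CPM, or 3.16 ± 0.159 on the log2 scale.

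Kynu, which encodes kynureninase of tryptophan breakdown, had the highest level of these genes. It was at 53.8 and 55.7 CPM at 6 h, 163 and 131 CPM at 12 h, and 402 and 414 CPM at 15 h. It rose by a log2 fold change of 2.16 ± 0.0708 (edgeR adjusted p = 8.28e-16) and rose again from 12 h to 15 h (log2 fold change 1.48). At 2 h it had averaged 13.8 CPM, and at 24 h it averaged 3828 CPM, so that the step covered a small part of its rise in CPM, though a larger part on the log2 scale. Drd3, the dopamine D3 receptor gene, was at 0.117 and 0.216 CPM at 6 h and at 2.16 CPM in both 15 h libraries. Spo11, which makes the DNA breaks of meiotic recombination, went from 0.654 and 0.625 CPM to between 2.27 and 4.37 CPM, and Capg, an actin-capping protein gene, from 1.73 and 1.57 CPM to between 5.29 and 8.60 CPM. Gdnf, a neurotrophic factor gene, was at 3.31 and 4.86 CPM at 12 h and 3.66 and 4.73 CPM at 15 h, and its replicates differed more than these time points did. The log2 fold changes of Wscd2, Slc18b1, Ankrd6, Gdnf, Capg and Rnf180 lay between 2.15 and 2.57.

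The largest falls were in Car10, Neo1, Cntn3, Cdk15, P2rx3, Vmn1r34, Hspa12a, Chac1, Olah, Trib3, Vmn1r33 and Slc7a3. Car10, a catalytically inactive member of the carbonic anhydrase family, was at 7.89 and 8.69 CPM at 6 h, 0.374 and 0.498 CPM at 12 h, and 0.283 and 0.170 CPM at 15 h. Its log2 fold change was -4.71 ± 0.132 (edgeR adjusted p = 7.42e-17). It had risen from a mean of 0.396 CPM at 0 h to 10.2 CPM at 2 h, so the later libraries lay near its level before induction. The promoters of Car10 (chr11:93098116-93098415, plus strand) and Neo1 (chr9:59036392-59036691, minus strand) are shown as the leading pair of this direction. That of Car10 held GGGAA 3 times and TCACCCC 1 time, and that of Neo1 CCAAT 1 time.
Car10: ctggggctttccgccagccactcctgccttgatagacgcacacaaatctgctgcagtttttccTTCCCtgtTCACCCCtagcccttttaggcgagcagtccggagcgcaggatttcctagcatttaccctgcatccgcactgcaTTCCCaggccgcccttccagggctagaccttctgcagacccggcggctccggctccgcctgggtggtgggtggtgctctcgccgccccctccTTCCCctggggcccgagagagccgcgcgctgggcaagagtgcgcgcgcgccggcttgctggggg
Neo1: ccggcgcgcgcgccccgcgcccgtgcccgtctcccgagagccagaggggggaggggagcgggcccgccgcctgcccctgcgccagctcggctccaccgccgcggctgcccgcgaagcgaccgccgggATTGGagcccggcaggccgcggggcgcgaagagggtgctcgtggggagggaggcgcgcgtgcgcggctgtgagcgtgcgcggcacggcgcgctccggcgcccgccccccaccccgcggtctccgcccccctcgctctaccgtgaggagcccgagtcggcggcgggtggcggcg

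Neo1, which encodes the receptor neogenin, went from 7.98 and 8.49 CPM at 6 h to between 0.374 and 0.719 CPM in the later libraries, after a mean of 0.242 CPM at 0 h and 2.61 CPM at 2 h. Cntn3, a contactin cell adhesion gene, went from 15.8 and 16.3 CPM to between 0.648 and 1.55 CPM, after 0.288 CPM at 0 h. These genes were thus higher at 6 h than before or after. Cdk15, a cyclin-dependent kinase gene, stood at 9.29 and 9.79 CPM at 6 h and fell further from 12 h (1.29 and 1.37 CPM) to 15 h (0.592 and 0.485 CPM). P2rx3, an ATP-gated ion channel gene, was the highest of the falling genes named here, at 91.3 and 93.3 CPM at 6 h against 9.32 and 11.8 CPM at 12 h and 8.45 and 8.30 CPM at 15 h (log2 fold change -3.29 ± 0.0544; edgeR adjusted p = 1.61e-20). Unlike the former it was already at a mean of 50.4 CPM at 0 h. Vmn1r34 and Vmn1r33, neighbouring vomeronasal receptor genes of 1 family on chromosome 6, both fell, with log2 fold changes of -3.20 ± 0.120 and -3.06 ± 0.150; reads of such similar genes may be split between them and their separate values are uncertain.

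**Figure D3:**
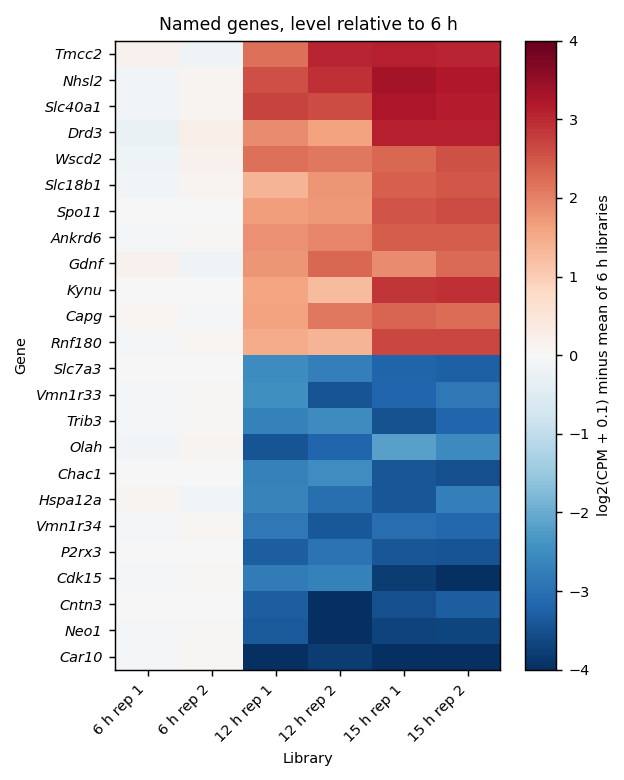
Levels of the 12 genes with the largest rise and the 12 with the largest fall in the 6 libraries, as log2(CPM + 0.1) minus the mean of the 6 h libraries (colour; red higher, blue lower; values beyond the scale take its end colour). All 4 libraries at 12 h and 15 h lie on the same side of both 6 h libraries for each of these genes, which the choice of the genes required.

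Genes of the amino acid response fell together. ATF4 is a transcription factor made when amino acids are short or the endoplasmic reticulum is stressed, and it drives genes for amino acid synthesis and uptake. Of 21 genes tested in this list, 14 fell (66.7%, against 2.93% of all genes) and 0 rose by edgeR's test, all 21 were below 0 in log2 fold change, and the median was -1.33. Cth, which makes cysteine by transsulfuration, was at 84.8 and 83.9 CPM at 6 h, 12.9 and 14.0 CPM at 12 h, and 8.58 and 7.79 CPM at 15 h. The log2 fold change of Cth was -3.01 ± 0.0480 (edgeR adjusted p = 1.61e-20), with no overlap between the groups. Chac1, which degrades glutathione, went from 9.62 and 9.64 CPM to 1.38 and 1.62 CPM at 12 h and 0.798 and 0.752 CPM at 15 h, and Trib3, a pseudokinase that feeds back on ATF4, from 7.75 and 8.21 CPM to between 0.618 and 1.32 CPM.

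Transporters and enzymes of the same list followed. Mean levels at 6 h, 12 h and 15 h were 56.6, 12.9 and 11.6 CPM for Slc7a11, the cystine importer, 95.2, 36.3 and 20.7 CPM for Asns, asparagine synthetase, and 274.8, 126.0 and 71.1 CPM for Slc7a1, a cationic amino acid transporter. Phgdh and Psat1 of serine synthesis and Shmt2 and Mthfd2 of mitochondrial one-carbon metabolism fell as well, with log2 fold changes between -1.33 and -1.49. Slc7a3, a related cationic transporter outside the list, went from 13.1 and 12.7 CPM to between 1.26 and 2.16 CPM. Atf4 itself did not pass the fold threshold, at 32.5, 21.5 and 19.3 CPM (log2 fold change -0.68). Against 6 h, 12 members of the list were called down at 12 h and 15 at 15 h. The Chac1 promoter (chr2:119350992-119351291, plus strand) is shown as that of the gene of this list that fell most among those with an entry. It held TGATGCA 1 time, as its reverse complement, along with GGGAA 2 times and CCAAT 3 times. Of 13 promoters matched to falling members of the list, 4 held TGATGCA, against 2.07% of all promoters, a difference that was not tested. The comparison was void, since TGATGCA and TCACCCC were added to the search after the values were seen.
Chac1: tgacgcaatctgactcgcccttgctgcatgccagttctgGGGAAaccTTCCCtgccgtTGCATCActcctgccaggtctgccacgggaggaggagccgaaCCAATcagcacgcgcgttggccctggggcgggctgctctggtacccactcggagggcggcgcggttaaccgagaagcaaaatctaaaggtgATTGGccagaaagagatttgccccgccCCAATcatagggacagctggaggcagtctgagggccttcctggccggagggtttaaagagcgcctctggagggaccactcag

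Genes of cholesterol synthesis also fell, with a different time course. Cells make cholesterol from acetyl-CoA through the mevalonate pathway, under the transcription factor SREBP2. The study left out of its later work a small gene cluster whose course changed direction. That cluster was enriched in sterol pathways, which the study linked to tamoxifen. Whether the genes below belong to it was not tested. Of 23 genes tested 17 fell (73.9%, against 2.93% of all genes) and 0 rose by edgeR's test, 22 were below 0, and the median log2 fold change was -1.14. Lss, lanosterol synthase, was at 165 and 162 CPM at 6 h, 30.2 and 25.3 CPM at 12 h, and 37.5 and 38.3 CPM at 15 h (log2 fold change -2.34 ± 0.0501; edgeR adjusted p = 1.20e-18). Its lowest level was thus at 12 h, and it had been at a mean of 54.4 CPM at 0 h and 95.5 CPM at 2 h. Hmgcs1, which makes HMG-CoA, showed the same order, with 391 CPM in both 6 h libraries, 104 and 74.7 CPM at 12 h and 141 and 142 CPM at 15 h, after a mean of 139 CPM at 0 h. Acat2 and Idi1 fell with log2 fold changes of -1.61 ± 0.0493 and -1.55 ± 0.0959.

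The cholesterol list was lower at 12 h (median log2 fold change against 6 h -1.32, 19 members called down) than at 15 h (12 members called down), the opposite order to the amino acid list (medians -1.12 and -1.60). Srebf2, which encodes SREBP2, did not pass the fold threshold, at 467.8, 340.2 and 419.8 CPM. Fatty acid synthesis genes moved in the same direction, with 4 of 11 called down (36.4%, against 2.93% of all genes). Fads2, a desaturase, went from 112 and 114 CPM to between 38.2 and 46.5 CPM, and Fasn, fatty acid synthase, from 256 and 246 CPM to between 105 and 131 CPM. The calls of Fasn, Scd2 and Acly rested on 12 h, and at 15 h alone their log2 fold changes were -0.97, -0.73 and -0.85; Scd2 also lost its call without 12 h replicate 2 (-0.97). The Lss promoter (chr10:76531355-76531654, plus strand) is shown as that of the cholesterol gene that fell most, and held GGGAA 1 time and CCAAT 1 time but no TCACCCC. Of 12 promoters matched to falling cholesterol genes, 1 held TCACCCC (8.33%, against 5.11% of all promoters), a comparison void for the same reason as that of TGATGCA.
Lss: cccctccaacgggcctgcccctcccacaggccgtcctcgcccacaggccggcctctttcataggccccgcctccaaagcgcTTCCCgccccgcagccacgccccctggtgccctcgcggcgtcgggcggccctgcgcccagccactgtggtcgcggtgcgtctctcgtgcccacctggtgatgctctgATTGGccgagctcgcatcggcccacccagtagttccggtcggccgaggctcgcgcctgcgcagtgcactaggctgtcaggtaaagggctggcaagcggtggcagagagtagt

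**Figure D4:**
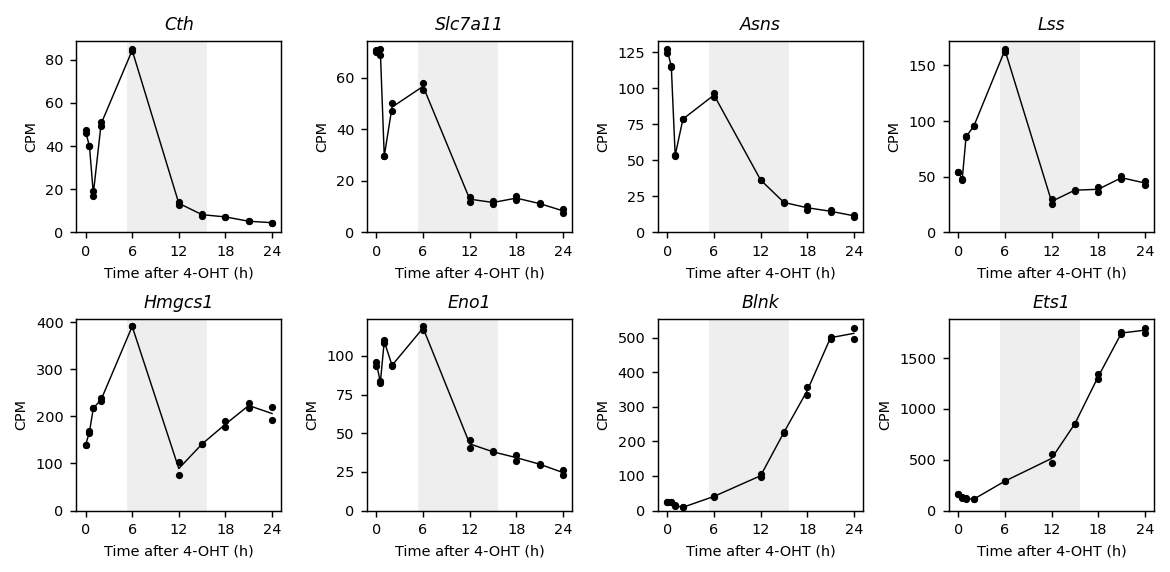
Levels (CPM, each axis from 0) of amino acid genes Cth, Slc7a11 and Asns, cholesterol genes Lss and Hmgcs1, the glycolytic gene Eno1, and Blnk and Ets1, in all 20 libraries (points) with time-point means (lines), against time after 4-OHT in hours; shading marks 6 h to 15 h. Lss and Hmgcs1 peak at 6 h and are lowest after it at 12 h, whereas Blnk and Ets1 climb from 6 h to 24 h.

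Glycolysis, which splits glucose to pyruvate and lactate, lost transcripts at several steps. Of 23 genes tested 6 fell (26.1%, against 2.93% of all genes) and 0 rose by edgeR's test, and the median log2 fold change was -0.62. Eno1, enolase, went from 119 and 117 CPM at 6 h to 45.5 and 40.7 CPM at 12 h and 37.7 and 38.2 CPM at 15 h. Pfkl, Ldha, Pgk1, Tpi1 and Aldoc also fell, with Ldha (lactate dehydrogenase) going from 60.0 and 59.1 CPM to between 21.0 and 26.7 CPM. The groups did not overlap for Eno1 or Ldha. Hk2, which phosphorylates glucose, was at 35.2, 23.6 and 17.2 CPM and Slc2a1, a glucose transporter, at 40.7, 25.1 and 23.9 CPM, with log2 fold changes of -0.80 and -0.74 that were under the fold threshold.

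Proliferation genes differed by group. The DNA replication list was lower as a whole, with 40 of 41 members below 0 and 1 called down (2.44%, against 2.93% of all genes). The median log2 fold change of its members was -0.51 (-0.28 at 12 h and -0.76 at 15 h). For 36 of them all 4 later libraries were below both 6 h libraries, as they were for 26.6% of all genes. None of 49 ribosome biogenesis genes was called by edgeR's test, while 48 were below 0, with a median of -0.40, and Nop58, a small nucleolar RNA-binding protein gene, was at 204 and 211 CPM at 6 h and 110 and 111 CPM at 15 h. None of 32 mitosis genes was called by edgeR's test, and their median was 0.06, which pooled 0.20 at 12 h and -0.11 at 15 h. Srm, spermidine synthase, fell from 8.52 and 7.78 CPM to between 2.86 and 4.98 CPM.

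Myc, a driver of growth, was at 34.0 and 30.7 CPM at 6 h, 22.3 and 28.2 CPM at 12 h and 18.1 and 19.1 CPM at 15 h (log2 fold change -0.58 ± 0.0813), under the fold threshold. Mxd4, an antagonist of MYC at MAX, rose from 63.3 and 65.0 CPM to 103 and 110 CPM at 12 h and 159 and 155 CPM at 15 h. Its log2 fold change of 1.01 stood at the threshold, and its call was lost when 6 h replicate 1 or 12 h replicate 2 (0.99 in both cases) was left out. Among cyclins and their inhibitors, Ccne1, the cyclin of S-phase entry, fell from 19.1 and 17.6 CPM to between 7.55 and 11.8 CPM, and Cdkn1a, the inhibitor p21, from 11.7 and 11.1 CPM to between 3.76 and 6.53 CPM. Ccnd1, a D-type cyclin, rose from 1.91 and 1.53 CPM to between 3.39 and 4.35 CPM, and lost its call without 6 h replicate 2 (0.95 on the log2 scale). Of the 17 members tested 1 rose (5.88%, against 4.01% of all genes) and 2 fell (11.8%, against 2.93%). Ccne1 lost its call without 6 h replicate 1 (-0.98) or 12 h replicate 2 (-0.95). Cdkn1b, the inhibitor p27, was at 26.9 and 27.1 CPM at 6 h and 46.2 and 44.1 CPM at 15 h (0.57 on the log2 scale). Ccnd2 was at 15.0 and 15.6 CPM at 6 h and between 10.6 and 15.4 CPM later, and Ccnd3 went from 176 and 177 CPM to 277 and 271 CPM at 15 h; neither passed the fold threshold.

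Pre-B cell receptor signalling genes rose in part. Of 22 tested, 3 rose (13.6%, against 4.01% of all genes), Blnk and Zap70 among them, and Blk, a SRC-family kinase, fell. Blnk, the adaptor that links the receptor's kinase to its effectors, was at 41.5 and 40.3 CPM at 6 h, 105 and 96.1 CPM at 12 h, and 228 and 224 CPM at 15 h. The log2 fold change of Blnk was 1.88 ± 0.0450 (edgeR adjusted p = 7.78e-18), and it rose again between 12 h and 15 h. Zap70, a kinase related to SYK, went from 6.07 and 5.76 CPM to between 13.5 and 20.01 CPM. Syk was at 368.5, 485.1 and 604.2 CPM and did not pass the fold threshold.

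Of 7 surrogate light chain and receptor genes, Vpreb1 and Igll1, the surrogate light chain itself, fell (28.6%, against 2.93% of all genes) and 0 rose. Igll1 was at 2.54 and 2.78 CPM at 6 h and between 0.979 and 1.52 CPM later, after a mean of 169 CPM at 0 h, and Vpreb1 was at 1.00 and 1.12 CPM and between 0.283 and 0.633 CPM, after 17.6 CPM at 0 h. Most of their fall thus preceded this step. Igll1 changed by -1.04 ± 0.128 on the log2 scale, and its call was lost without 6 h replicate 2 (-0.97) or 15 h replicate 1 (-0.96).

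Light-chain transcripts moved the other way. Of 63 immunoglobulin kappa variable segments tested, 24 rose (38.1%, against 4.01% of all genes) and 0 fell by edgeR's test, with a median log2 fold change of 0.98. Their summed level was 53.7 and 56.2 CPM at 6 h, 102.6 and 90.7 CPM at 12 h, and 95.1 and 95.0 CPM at 15 h, with no further increase from 12 h to 15 h. Iglc2, a lambda constant segment, went from 0.140 and 0.151 CPM to between 0.773 and 2.09 CPM. Of 42 heavy-chain variable segments 1 rose (2.38%, against 4.01% of all genes) and 2 fell (4.76%, against 2.93%), near the shares of all genes. The segments that rose included pseudogenes. Over all chains, 16 of 44 variable pseudogenes (36.4%) and 11 of 66 variable genes (16.7%) rose. Some had few reads, such as Igkv4-60 with 2 and 1 counts at 6 h and 14 and 11 at 15 h. Segments like it passed the count filter through later libraries and could hardly have been called down. The 24 kappa segments up against 0 down, and their share of 38.1%, were thus partly set by the filter. Higher segments were not called, among them Igkv14-111, Igkv1-110 and Igkv4-71, at means of 10.4, 8.58 and 7.98 CPM at 6 h. Their log2 fold changes were 0.59, 0.78 and -0.025. Segments of a family are near-identical in part, and single segments are uncertain. Dntt, the polymerase that adds bases at V(D)J joints, was the called member of 10 V(D)J recombination genes (10%, against 4.01% of all genes). It went from 1.47 and 1.44 CPM to between 3.09 and 4.08 CPM.

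Of 20 genes for B-cell stage surface markers, 5 rose (25%, against 4.01% of all genes) and 1 fell (5%, against 2.93%), with a median log2 fold change of 0.51. Cd22, an inhibitory lectin of B cells, went from 6.79 and 6.55 CPM to between 17.0 and 22.2 CPM, and Cd38 from 0.397 and 0.496 CPM to between 1.296 and 1.84 CPM. Fcrla, Fcrl1 and Il2ra (CD25, a marker of small pre-B cells) rose too, Il2ra from a mean of 6.5 CPM to 13.8 CPM at 12 h and 20.5 CPM at 15 h. The exception was Cd69, an early activation marker, which fell from 111 and 110 CPM to between 33.6 and 42.9 CPM. Among 31 lymphoid transcription factors 1 rose and 1 fell (3.23% each, near the 4.01% and 2.93% of all genes). Ets1 rose from 286 and 293 CPM to 560 and 465 CPM at 12 h and 854 CPM in both 15 h libraries, and Gfi1b, a repressor of haematopoietic cells, fell from 4.88 and 5.67 CPM to between 1.25 and 2.81 CPM. Ikzf1 reads, which include any from the transduced construct that map to the gene, were at 6933 and 6821 CPM at 6 h and between 8211 and 9436 CPM later. Foxo1 was at 2573 and 2581 CPM at 6 h and 3720 and 3792 CPM at 15 h (0.35 on the log2 scale for the step).

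Smaller groups held a few called members each. Maml2, a Notch coactivator gene, rose from 30.4 and 29.6 CPM to 66.4 and 88.1 CPM at 12 h and 125 and 126 CPM at 15 h, and Notch4 from 3.62 and 3.34 CPM to between 6.44 and 9.15 CPM. Heyl was called from 1 count in each 6 h library, and no fold is given for it; without 6 h replicate 2 it was not called. H2-Ob, a modulator of peptide loading on MHC class II, rose from 11.4 and 10.9 CPM to between 21.5 and 40.8 CPM, and Ctss, the protease cathepsin S, from 10.9 and 10.2 CPM to between 21.8 and 24.9 CPM. Of 26 interferon-stimulated genes 4 rose (15.4%, against 4.01% of all genes) and 2 fell (7.69%, against 2.93%), and 17 were above 0, with a median log2 fold change of 0.23. Oas2, a sensor of double-stranded RNA, rose from 1.05 and 1.38 CPM to between 3.08 and 6.88 CPM, and Ifit1, which binds foreign RNA caps, went from 1.31 and 1.51 CPM to between 0.0249 and 0.437 CPM. Of 21 AP-1, EGR and MAPK feedback genes 5 fell (23.8%, against 2.93% of all genes) and 0 rose by edgeR's test, and each of the named ones, Egr3, Spry1, Fosl1 and Fosb, was under 3 CPM at 6 h; with 6 h replicate 2 left out 1 of the list was called.

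Of 18 endoplasmic reticulum chaperone and stress genes, 2 rose (11.1%, against 4.01% of all genes) and 0 fell by edgeR's test. They were Calr and Sdf2l1, and 15 of 18 were above 0, with a median log2 fold change of 0.38. Calr, the chaperone calreticulin, rose from 29.1 and 27.7 CPM to between 61.3 and 67.9 CPM. Sdf2l1 lost its call without 6 h replicate 1 (0.92) or 15 h replicate 1 (0.9978 on the log2 scale). Calr had averaged 75.8 CPM at 2 h and was back at 19.6 CPM at 24 h. Tsc22d3, a glucocorticoid-responsive gene, fell from 27.1 and 26.0 CPM to between 7.70 and 12.1 CPM. The homing receptor genes Ccr9 and S1pr1 rose from low levels, S1pr1 from 0.770 and 0.604 CPM to between 1.01 and 2.65 CPM; Ccr9 without 6 h replicate 1 and S1pr1 without 6 h replicate 2 were not called (both 0.99 on the log2 scale). The mitochondrial ribosomal RNA genes mt-Rnr1 and mt-Rnr2 rose, their share of all counts going from 0.230% and 0.235% at 6 h to between 0.446% and 0.534%. The libraries were depleted of ribosomal RNA, and the part of that step in this rise was not tested.

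**Figure D5:**
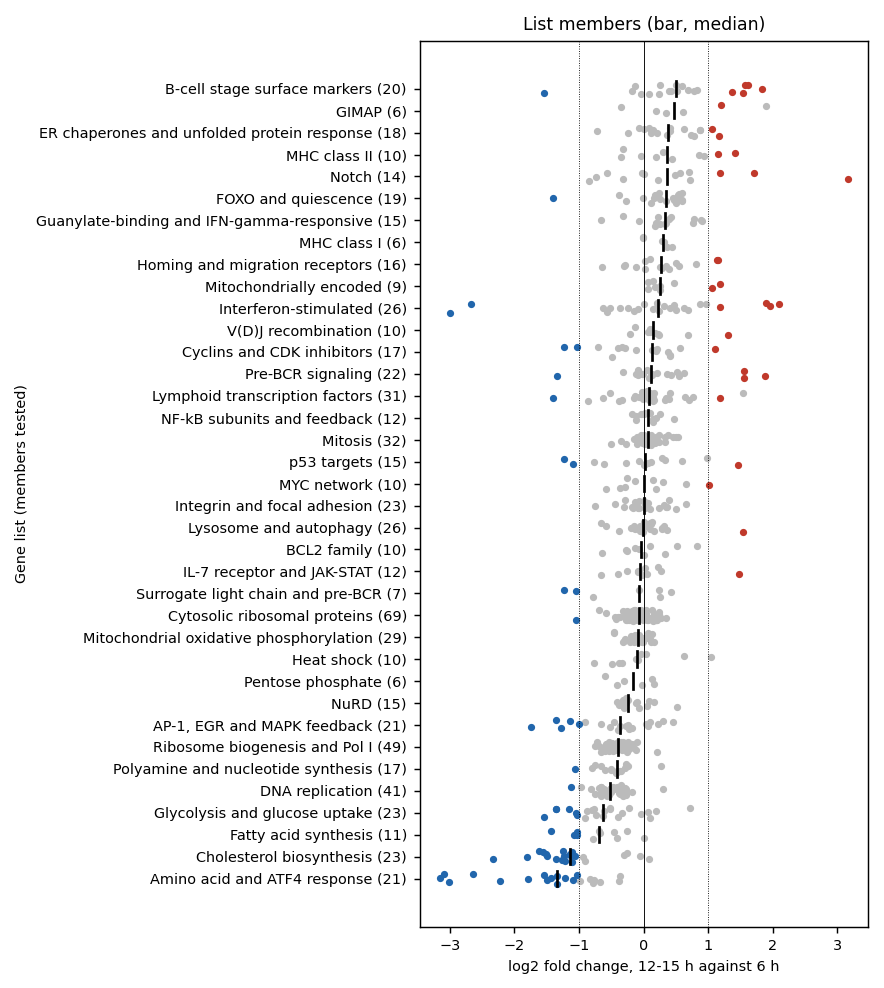
Log2 fold change of 12-15 h against 6 h for each member of the gene lists with at least 5 members tested (points; red called up, blue called down, grey not called), ordered by the list's median (black bar); the number tested is in brackets. The amino acid and cholesterol lists lie lowest, with medians of -1.33 and -1.14, and the B-cell stage surface list highest, at 0.51.

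By annotation, long intergenic non-coding RNAs (lincRNAs) held a larger share of rising genes than protein-coding genes did, a difference that was not tested. Of 1181 lincRNAs 153 rose (13.0%) and 66 fell (5.59%), while of 13028 protein-coding genes 374 rose (2.87%) and 341 fell (2.62%). The median gene length was 22.7 kb for rising, 18.5 kb for falling and 20.8 kb for all genes tested. Their median levels were 1.04, 0.799 and 7.92 CPM, so the genes called were on the whole of low level. Of the 24 genes with the largest changes, Drd3, Rnf180, Cntn3, Hspa12a and Olah share sequence with another annotated gene on the same strand, and Tmcc2, Nhsl2, Ankrd6, Car10, Neo1, Cntn3, P2rx3 and Hspa12a with a gene on the other strand; reads of such pairs may not be told apart, since the strand setting of the counting is not known.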

How the data were processed

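Chromatin-bound nascent RNA was sequenced from B3 cells at 10 time points, 2 libraries each. The authors aligned reads to GRCm38 (mm10) with STAR through nf-core/rnaseq and deposited read counts per gene from featureCounts, with intronic reads included; the strand setting and annotation release are not given in the sources used here. Per the labels, CASAVA 2.17 was used upstream. Here, 55240 of 56239 gene identifiers were matched to GENCODE M21. A minimum of 10 counts in 2 or more libraries left 16601 genes, which were fitted over all 20 libraries with edgeR 4.0.16 (R 4.3.3; TMM, quasi-likelihood), with time as a factor, and the mean of 12 h and 15 h was set against 6 h. A call needed a Benjamini-Hochberg adjusted p under 0.01, a fold above 2 and 1 sign at both times. The study's likelihood ratio test over all times was not used. CPM are TMM-scaled, SE come from the fit, and the pipeline was tested on simulated data. DESeq2 1.42.0 and other settings were alternatives. The members and gene lists were chosen with earlier results of these data known. Named genes were the 12 largest rises and falls (protein-coding, at least 1 CPM, groups not overlapping), up to 4 called members of each list, a fixed set of lymphoid genes, and the 4 largest differences of 15 h against 12 h; other list members were picked for their function after values were seen. Same-numbered replicates did not deviate together (correlations -0.0692, 0.0445 and -0.127 over 12056 genes), so the main fit had no replicate block. Gene symbols of 78.1% of protein-coding genes tested matched a RefSeq promoter. Some genes are not reported here.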

Additional observations from a re-analysis of the deposited data

Results flagged for a closer look

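For 9 named genes the change from 6 h differed between 12 h and 15 h in edgeR's test of 15 h against 12 h, in which 0.717% of all genes were called. Of the 9, Kcnh1, Cyp4x1, Gm11983 and Drd3 met the naming rule for the 4 largest differences in this same test. Their difference was thus fixed by that choice. Kcnh1, a voltage-gated potassium channel gene, was at 1.56 and 1.36 CPM at 6 h, 1.12 and 1.07 CPM at 12 h, and 7.57 and 7.35 CPM at 15 h, which was 2.76 on the log2 scale from 12 h to 15 h, and it reached a mean of 159 CPM at 24 h. Cyp4x1, a cytochrome P450 gene, differed by 2.62 and Gm11983 by 1.49. For these genes the fitted level at 12 h was below that at 6 h (log2 fold change -0.02 for Gm11983), and none was called in the step. Drd3 differed by a log2 fold change of 1.48, Kynu by 1.48, Rnf180 by 1.28, Blnk by 1.17 and S1pr1 by 1.08, each higher at 15 h, and Cdk15 by -1.31, lower at 15 h. The adjusted p of these differences ranged from 4.16e-13 for Blnk to 0.00137 for S1pr1 in edgeR's test.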

How the results depend on the processing

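No setting reversed the direction of a named gene that was called in that setting or in the main fit. In at least 1 setting, 52 of 128 named genes changed their call or, if not called, their direction. With single libraries left out, Epor ranged from -0.59 to 1.43 and Cd74 from -0.17 to 0.07 on the log2 scale. With genes held to at least 10 counts in all libraries, which leaves fewer genes, the step called 315 up and 182 down, 12 h against 6 h 234 and 143, 15 h against 6 h 474 and 330, 15 h against 12 h 21 and 20, 2 h against 0 h 629 and 754, and 24 h against 2 h 1779 up. With a fold above 1.5 they were 1318 and 1131, 928 and 656, 1662 and 1584, 231 and 294, and for 2 h against 0 h 1953 and 1975. With a test against a 2-fold change they were 154 and 178, 68 and 134, 255 and 193, 3 and 0, 361 and 661, and 1745 down at 24 h against 2 h. Called at 12 h and 15 h separately, 366 rose and 275 fell in the step. At an adjusted p under 0.05, 15 h against 12 h called 122 and 101, and 25 down with the compared libraries only and 26 with DESeq2, which called 578 and 388 in the step. The replicate block gave 657 and 482 and changed no count by over 1.5 times. Without each library in turn, 534 to 637 rose and 424 to 488 fell. Dropping the 12 h libraries, an alternative chosen after seeing the data, gave 877 and 686 at 15 h. With library totals only, the step called 600 up and 525 down. In that setting 24 h against 2 h called 2025 up and 3708 down, against 2697 and 2753 in the main fit, so the balance there changed with the scaling. Positions of 6 h, 12 h and 15 h over those genes were 35.54%, 59.82% and 76.47% for rising and 17.25%, 32.79% and 51.37% for falling genes. With genes above 4-fold they were 21.19% at 6 h, 38.28% at 12 h and 54.42% at 15 h for falling and 53.49% at 12 h for rising genes, and as a ratio of means 23.85%, 39.75% and 57.23% for falling and 67.49% at 15 h for rising genes. Without each 2 h or 24 h library, rising genes were at 30.93% to 32.29% at 6 h, 51.41% to 52.42% at 12 h and 67.94% to 69.2% at 15 h, and falling genes at 18.02% to 19.9%, 35.13% to 37.45% and 54.18% to 56.08%. The cause of these shifts was not tested. Genes below 1 CPM are the least precise at this depth.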
